A study of Homo sapiens with 4 samples.

Results

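Interferon response genes are genes that cells switch on after an interferon signal, and 9 of them were followed here by their gene symbols: ISG15, IFI6, IFI27, IFITM1, IFITM2, IFITM3, IRF1, OAS1 and MX1. All 9 are listed among the 57746 genes of the expression table. The study sequenced total RNA of the human colorectal cancer line DLD1 and of 3 derivatives. The parental DLD1 is labelled epithelial, SA came from soft agar colonies and SPH from colonospheres (both labelled mesenchymal), and METS, labelled epithelial, was taken from a xenograft's metastasis in the lung. All 4 lines were kept in McCoy's 5A medium with fetal bovine serum, the labels name no interferon treatment, and each line is represented by 1 library. Values are in RPKM, reads scaled to gene length and library size, and differences are on the scale of log2(RPKM + 1) unless called a ratio.

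Type I, type II and type III interferons bind different receptors, whose kinases phosphorylate STAT transcription factors. STAT factors join IRF9 on the interferon-stimulated response element (ISRE), and STAT pairs without it bind the gamma-activated site (GAS). The targets include transcription factors such as IRF1, the ubiquitin-like protein ISG15, the membrane proteins of the IFITM family that hinder virus entry, the RNA-sensing enzyme OAS1, the GTPase MX1, and the small membrane proteins IFI6 and IFI27. In epithelial cells many of these genes also keep a basal level without added interferon.

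The promoters of ISG15, IFITM1, IFITM3 and IFI27 are shown because their genes carry the same motif and yet stood at very different levels. They are RefSeq sequences of the build GRCh38.p14, from 120 bases before to 10 bases after the transcription start site, 5′ to 3′ on the gene's strand, and capitals mark the ISRE core on either strand, which is GAAA, any 2 bases and GAAA again. IFITM1 and IFITM3 are neighbours on chromosome 11, and over their 117 aligned bases 70.9% were identical. The coordinates are chr1:1013377-1013506 (plus strand) for ISG15, chr11:313920-314049 (plus strand) for IFITM1, chr11:320851-320980 (minus strand) for IFITM3 and chr14:94110616-94110745 (plus strand) for the first of the 2 listed start sites of IFI27.
ISG15: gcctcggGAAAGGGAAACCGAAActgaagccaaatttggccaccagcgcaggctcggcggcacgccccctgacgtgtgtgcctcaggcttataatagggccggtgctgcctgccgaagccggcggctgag
IFITM1: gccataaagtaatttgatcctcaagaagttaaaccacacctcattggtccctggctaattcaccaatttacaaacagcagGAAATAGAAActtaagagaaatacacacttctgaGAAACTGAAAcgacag
IFITM3: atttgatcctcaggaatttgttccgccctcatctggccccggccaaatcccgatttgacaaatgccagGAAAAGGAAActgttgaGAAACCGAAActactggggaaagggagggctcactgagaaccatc
IFI27: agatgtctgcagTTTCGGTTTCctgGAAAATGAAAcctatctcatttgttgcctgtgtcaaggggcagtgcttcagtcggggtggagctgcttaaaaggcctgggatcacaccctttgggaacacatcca

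Each of these 4 stretches held 2 ISRE cores, which overlap in ISG15. Of the 9 genes, 8 had a promoter window in the RefSeq table, 300 bases long and reaching from 250 before to 50 after a start site, and IFITM2 had none. The ISRE core was found in a window of 6 of the 8 genes: ISG15, IFI6 (3 cores), IFI27, IFITM1, IFITM3 and MX1. By window, 8 of the 11 windows of these genes held the core, and the 2 windows of IFI27 overlap. Across all 35116 windows of that length 3.57% held the core, and 0.259% held it at least 2 times. The GAS motif TTCNNNGAA, which reads the same on both strands, was found in a window of IRF1, OAS1, IFI27, IFITM1 and MX1. Of all windows 7.66% held it, a share of windows and not of genes. In IFI27 it overlapped both ISRE cores, and it overlapped 1 core in IFITM1 and 1 in MX1. These are matches of letters and no record of a factor bound there, and variant forms of the element are missed. The OAS1 window holds gaaacgaaa, with 1 base between the 2 GAAA, which the ISRE core as defined here does not count.

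**Figure D1:**
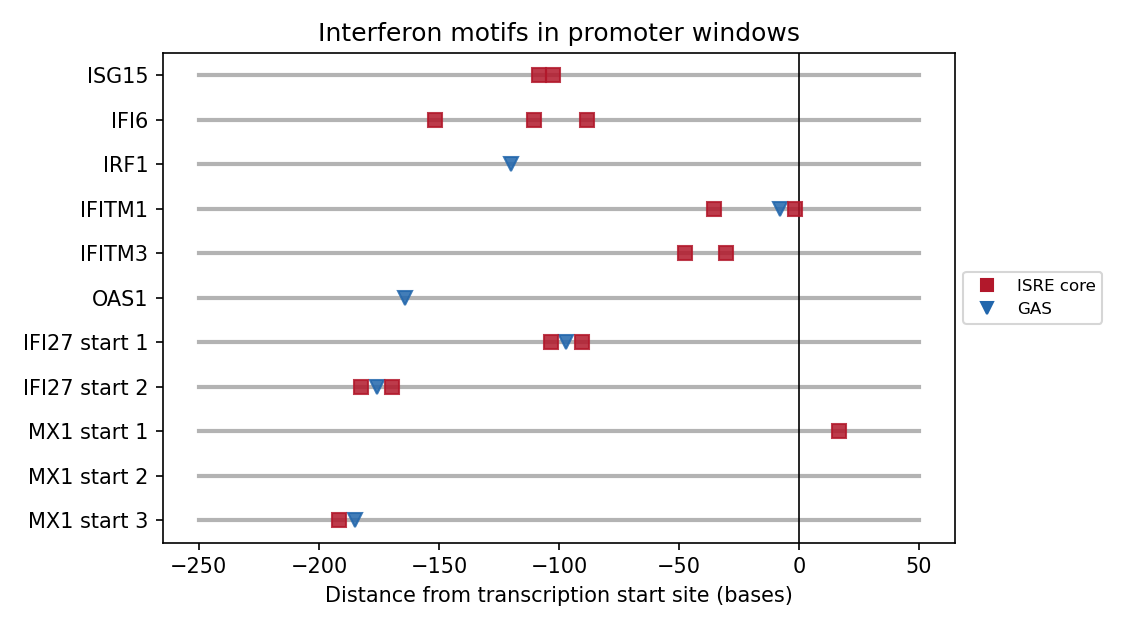
Positions of the ISRE core (squares) and the GAS motif (triangles) in the 11 RefSeq promoter windows of 8 genes, in bases from the transcription start site (0, vertical line); each grey bar is 1 window of 300 bases. IFI27 has 2 listed start sites and MX1 has 3. IRF1 and OAS1 have a GAS motif and no exact match to the ISRE core, though OAS1 holds a variant with 1 base between the 2 GAAA.

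The 9 genes covered a wide range of levels, and the 6 genes above 1 RPKM kept 1 order in all 4 lines. IFITM2, IFITM3, ISG15 and IFI6 were abundant, OAS1 and IRF1 were low, and IFITM1, MX1 and IFI27 stayed under 1 RPKM in all 4 libraries. DLD1 was the highest line for 4 of the 6 genes above 1 RPKM, against 21.6% of all genes tested. Only ISG15 among these 4 was above every other line beyond counting error. IFITM3 in METS, IRF1 in SA and OAS1 in SPH were within counting error of DLD1. SA was the lowest line for 3 of 6, against 15.6%, and METS for 2 of 6, against 39.4%. The mean level of IFITM2 lay at percentile 99.0 and that of IFITM3 at percentile 98.4 of the 11262 genes that reached 1 RPKM in at least 2 libraries. In the order IFITM2, IFITM3, ISG15, IFI6, OAS1, IRF1, no 2 neighbours overlapped in RPKM over the 4 lines. IFITM1, MX1 and IFI27 did overlap one another. IFITM2 and IFITM3 together made up 76.1% to 82.6% of the summed RPKM of the 9 genes.

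**Figure D2:**
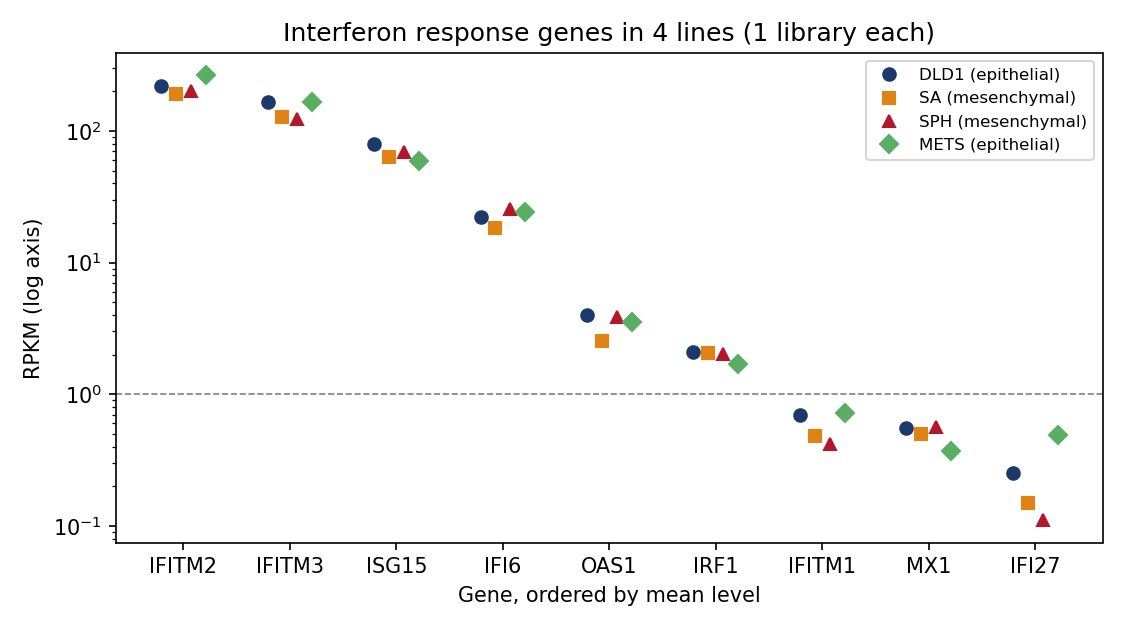
RPKM on a log axis of the 9 genes in the 4 lines, 1 point per library, ordered by mean level; the dashed line marks 1 RPKM. The 4 points of a gene lie close together beside the spread between genes, except for IFI27, which ran from 0.11 RPKM in SPH to 0.49 in METS.

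IRF1, a transcription factor that interferon-gamma induces, was nearly flat over DLD1, SA and SPH. It had 2.08 RPKM in DLD1 against 2.07 in SA, 2.02 in SPH and 1.68 in METS. METS was the lowest, at 0.808 times DLD1 with a 95% counting interval of 0.580 to 1.11. Such intervals are exact binomial intervals on reads estimated from the RPKM, the library depth and the shortest coding transcript. For IRF1 this gave 69 reads in METS and 92 in DLD1, against 657 and 872 with all annotated exons summed. More reads narrow an interval, so an interval that includes 1 may exclude it at a longer length. The intervals cover counting error alone, since the spread between cultures of a line is unknown.

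ISG15, which is conjugated to other proteins during antiviral responses, was highest in the parental line. It had 79.19 RPKM in DLD1 against 63.84 in SA, 69.47 in SPH and 59.57 in METS. All 3 derived lines were lower than DLD1, with ratios of 0.806, 0.877 and 0.752, and all 3 counting intervals lay below 1 (the highest upper end was 0.928, in SPH). The difference between METS and DLD1 was -0.40 on the log2(RPKM + 1) scale, under the 2-fold rule.

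IFI6, a small membrane protein that counters cell death and virus replication, had 22.06 RPKM in DLD1 against 18.26 in SA, 25.35 in SPH and 24.04 in METS. SA was the lowest line and the other mesenchymal line, SPH, the highest, so the labelled classes overlapped. SPH was 1.39 times SA, with a counting interval of 1.26 to 1.53. IFI27, its relative, had 0.25 RPKM in DLD1 against 0.15 in SA, 0.11 in SPH and 0.49 in METS. These values rest on few reads, an estimated 3 in SPH and 12 in METS with the shortest coding transcript and 24 and 102 with all annotated exons summed. METS was 1.96 times DLD1, with a counting interval of 0.667 to 5.51 that includes 1, and 4.45 times SPH, with an interval of 1.14 to 23.3 that does not.

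IFITM2 and IFITM3, both membrane proteins of endosomes, had lower values in SA and SPH than in DLD1 and METS. IFITM3 had 165.29 RPKM in DLD1 against 127.21 in SA, 123.65 in SPH and 164.75 in METS. SA and SPH were close to each other, DLD1 and METS were close to each other, and the classes did not overlap. The ratio to DLD1 was 0.770 in SA (counting interval 0.736 to 0.805), 0.748 in SPH (0.716 to 0.781) and 0.997 in METS (0.957 to 1.04).

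IFITM2 had 220.52 RPKM in DLD1 against 190.8 in SA, 200.07 in SPH and 264.73 in METS. Here METS was above DLD1, at 1.20 times its level (counting interval 1.16 to 1.24), whereas IFITM3 was level between the same libraries. The ratio of IFITM2 to IFITM3 within a library was 1.33 in DLD1 and higher in the derived lines, at 1.5 in SA, 1.62 in SPH and 1.61 in METS, so it was lowest in the parental line.

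IFITM1, which sits mainly at the cell surface, had 0.69 RPKM in DLD1 against 0.48 in SA, 0.42 in SPH and 0.72 in METS. The mesenchymal lines were again below the epithelial lines, but the counting interval of SPH against DLD1 ran from 0.303 to 1.16. IFITM3 stood 229 to 294 times and IFITM2 320 to 476 times above IFITM1 in RPKM, and the printed promoters of IFITM1 and IFITM3 each hold 2 ISRE cores.

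The 3 IFITM genes resemble one another in sequence, so reads can be shared between them. The coding sequences of IFITM2 and IFITM3 were 94.0% identical over 399 aligned bases (GENCODE 29), with an identical run of 99 bases, and IFITM1 and IFITM3 were 87.6% identical. Of the 50-base words of the IFITM1 transcript, 42.3% also occur in transcripts annotated to another gene, and 39.0% occur in transcripts annotated to IFITM2. For IFITM2 and IFITM3 the shares with another gene were 15.8% and 20.3%. The longest identical coding run of IFITM1 and IFITM2 was 99 bases. How much of the IFITM1 share comes from likeness and how much from annotated transcripts that overlap was not tested. The table lists IFITM1 at 0.210% to 0.313% of IFITM2, so a small fraction of IFITM2 or IFITM3 reads assigned to IFITM1 would equal its whole value. In the other direction, IFITM1 reads that were dropped as shared or assigned to IFITM2 would lower it. How shared reads were assigned is not given in the sources used here, and the part of shared reads in the IFITM1 values was not tested. The most unlike ungapped stretch of 60 coding bases in IFITM2 and IFITM3 is printed to show how few bases tell the pair apart, with the 8 mismatches in capitals (coding bases 334 to 393 of IFITM2 and 337 to 396 of IFITM3).
IFITM2: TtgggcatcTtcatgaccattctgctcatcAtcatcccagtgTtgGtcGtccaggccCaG
IFITM3: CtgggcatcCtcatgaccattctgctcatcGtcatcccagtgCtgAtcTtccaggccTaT

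OAS1, which makes the signal molecule that activates RNase L when it binds double-stranded RNA, had 3.96 RPKM in DLD1 against 2.52 in SA, 3.87 in SPH and 3.51 in METS. SA was the lowest, at 0.636 times DLD1 (counting interval 0.477 to 0.840). SPH and METS were within counting error of DLD1 with reads from the shortest coding transcript. For METS and DLD1 those were 117 and 141 reads, against 871 and 1053 with all annotated exons summed, which would narrow the interval. MX1, a GTPase that traps viral components, had 0.55 RPKM in DLD1 against 0.5 in SA, 0.56 in SPH and 0.37 in METS. METS was the lowest, with a ratio to DLD1 of 0.673 and a counting interval of 0.433 to 1.03. That interval rests on an estimated 37 reads in METS and 59 in DLD1. With all annotated exons summed the estimates were 160 and 255, which would narrow it.

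None of the 9 genes differed 2-fold between any pair of lines on the log2(RPKM + 1) scale, which compresses low values. With a pseudocount of 0.1 in place of 1, IFI27 alone passed 2-fold, at 1.24 in METS against SA and 1.49 in METS against SPH, and it lay under the minimum of 1 RPKM. Of the 9, 6 reached the minimum of 1 RPKM in the higher library, and 0 of 6 were called in each of the 6 comparisons. The shares of all genes called in either direction were 0.677% in SA against DLD1, 1.26% in SPH against DLD1, 1.42% in METS against DLD1, 0.262% in SPH against SA, 1.93% in METS against SA and 2.64% in METS against SPH. With so few genes called in all, a count of 0 among 6 is near the background. The widest span over the 4 lines was 0.49 on the log2(RPKM + 1) scale, for OAS1. No gene spanned 1, the span set for naming genes with a like pattern, so none is named.

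The directions differed between lines. In SA all 6 genes of at least 1 RPKM were below DLD1, IRF1 barely so at -0.0047, where 44.4% of all genes were below DLD1. Their median difference was -0.28 against 0.03 over all genes. In SPH the median was -0.08 against 0.03, and in METS it was -0.07 against -0.03. The share of all genes below DLD1 was 43.6% in SPH and 54.9% in METS, where 5 of the 6 genes in SPH and 4 of the 6 in METS were below. In METS IFITM3 was barely below, at -0.0047, and with median-of-ratios factors it was above, at 0.0255. The 3 comparisons share the single DLD1 library.

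**Figure D3:**
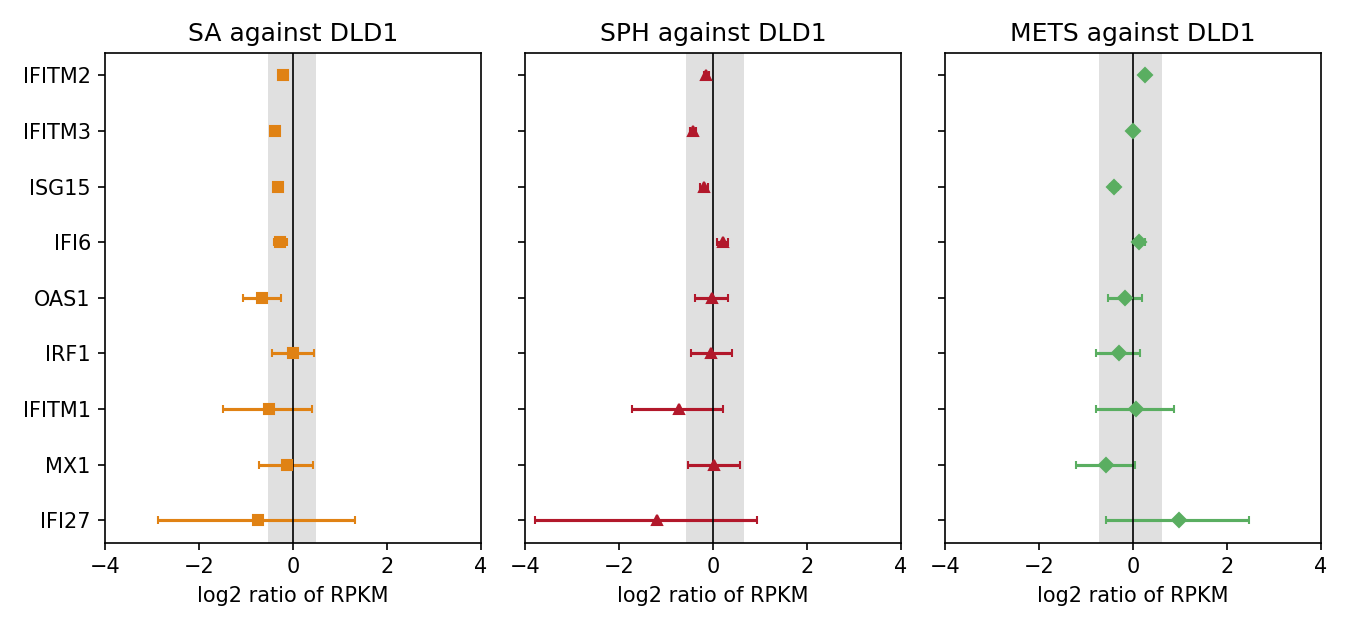
Log2 ratio of RPKM to DLD1 for the 9 genes in SA, SPH and METS (points), with 95% counting intervals (bars) and, in grey, the central 95% of all genes of at least 1 RPKM in both lines. The points for the abundant genes lie within the grey band. OAS1 lies below the band in SA, with an interval that excludes 0. IFI27 lies outside the band in all 3 panels and IFITM1 lies below it in SPH, both under 1 RPKM. The intervals of IFITM1, MX1 and IFI27, on reads from the shortest coding transcript, include 0 in all 3 panels.

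The labelled classes were then compared over the 11262 genes defined above (SA and SPH against DLD1 and METS, limma-trend with Benjamini-Hochberg adjustment). The spread in this test is between different lines of a class and not between replicate cultures. The share of all genes called was 0.355%, and 0 of the 6 tested genes passed an adjusted p of 0.05 (limma-trend), with 2 at an unadjusted p under 0.05 against 8.65% of all genes. IFITM3 stood 0.39 ± 0.10 (SE) lower in the mesenchymal lines, with an adjusted p = 0.35 (limma-trend, unadjusted p = 0.0065). IFITM2 stood at -0.31 ± 0.12 (SE), with an adjusted p = 0.57 (limma-trend, unadjusted p = 0.048), and its difference was -0.17 without METS. The count of genes at an unadjusted p under 0.05 was 1 without SA or without METS and 0 without SPH.

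OAS1 stood at -0.19 ± 0.18, IFI6 at -0.09 ± 0.17, ISG15 at -0.04 ± 0.16 and IRF1 at 0.08 ± 0.13 (SE, mesenchymal minus epithelial), each smaller than or about the size of its error. The sign of OAS1, IFI6 and ISG15 turned without the SA library (0.04, 0.13 and 0.02), that of ISG15 also without DLD1 (0.16), and that of IRF1 without METS (-0.02). Of the 6 genes, 2 (IFITM2 and IFITM3) had both mesenchymal lines below both epithelial lines, against 13.1% of all genes tested, and 0 had both above, against 24.7%. Counting the 3 genes under 1 RPKM as well, 4 of 9 genes (IFITM1, IFITM2, IFITM3 and IFI27) did so, against 9.91% of all genes above 0, and 0 of 9 had both above, against 22.9%. Of these 4, the 3 IFITM genes share sequence, and IFITM1 and IFI27 rest on few reads.

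The pathway upstream was read from 9 lists of 125 genes, of which 124 are listed in the table (TAP2 was not matched). The interferon genes themselves were at or near 0. Of 21 interferon ligands, 17 are listed at 0 in all 4 lines, among them IFNB1 and IFNG, and the highest value was 0.03 RPKM (IFNL3 in METS). All 6 receptor subunits reached 1 RPKM. IFNGR1, the ligand-binding subunit for interferon-gamma, had 39.92 RPKM in DLD1 against 34.35 in SA, 29.77 in SPH and 23.72 in METS. It was lowest in METS, whereas IFNGR2, its partner subunit, was highest there (7.17, 6.71, 7.46 and 9.25 RPKM in the same order). IFNAR1, of the type I receptor, stood between 7.25 and 8.52 RPKM, and IL10RB, of the type III receptor, between 3.49 and 5.14.

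Among the kinases and STAT factors, 6 of 7 genes reached 1 RPKM. STAT2, a part of the ISRE-binding complex, stood between 7.17 and 8.26 RPKM. TYK2, a kinase of the type I receptor, had 14.28 RPKM in DLD1 against 14.81 in SA, 13.56 in SPH and 10.73 in METS. JAK1, shared by all 3 receptor types, had 16.0, 15.74, 16.17 and 13.34 in that order. Both were lowest in METS. STAT3 was highest in DLD1, at 14.4 RPKM against 11.21 to 12.39 in the derived lines. IRF9, the DNA-binding part of that complex, is the exception, at 0.03 to 0.16 RPKM.

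Of the 7 other interferon regulatory factors, 5 reached 1 RPKM. IRF7, which amplifies type I interferon production, had 15.41 RPKM in DLD1 against 13.74 in SA, 14.84 in SPH and 12.57 in METS. It was lowest in METS. IRF5 stood between 2.86 and 3.54 RPKM, and IRF2, which represses ISRE-driven genes, between 6.75 and 7.71.

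Of 12 nucleic acid sensors and adaptors, 8 reached 1 RPKM. TMEM173, the adaptor STING of the cytosolic DNA pathway, had the widest span of them. It had 3.31 RPKM in DLD1 against 5.24 in SA, 7.42 in SPH and 2.9 in METS, so both mesenchymal lines were above both epithelial lines. Its class difference was 0.82 ± 0.17 (SE) and did not pass (adjusted p = 0.25, limma-trend). The DNA sensor MB21D1 (cGAS), which acts before STING, did not exceed 0.27 RPKM. IFIH1, a sensor of viral RNA, stood between 3.74 and 5.32 RPKM, TLR3, an endosomal sensor of double-stranded RNA, between 1.33 and 1.83, and EIF2AK2, the kinase PKR, between 12.43 and 14.9.

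Of 8 negative regulators, 6 reached 1 RPKM. USP18, which also counts among the genes of ISG15 conjugation and which removes ISG15 from proteins and dampens the type I receptor, had 7.94 RPKM in DLD1 against 6.96 in SA, 7.44 in SPH and 5.85 in METS, in the same order of lines as ISG15. PIAS4 ran from 7.47 to 9.09 RPKM, IRF2BP1 from 13.92 to 18.68 and the phosphatase PTPN6 from 4.82 to 6.95, each lowest in METS. Among the 6 genes of ISG15 conjugation, HERC6 stood at 5.85, 4.51, 4.91 and 2.97 RPKM in the order DLD1, SA, SPH, METS, and HERC5, the main human ligase for ISG15, at 2.18, 1.83, 1.93 and 1.64. Both had their highest value in DLD1 and their lowest in METS, as ISG15 did. Of all genes tested 39.4% were lowest in METS. UBE2L6, the conjugating enzyme, stood at 5.71, 4.27, 5.78 and 4.56 RPKM, while UBA7, the activating enzyme of the same chain, stood at 0.25 to 0.28.

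Of 43 other interferon-stimulated genes, 22 reached 1 RPKM and 21 did not. The second set holds genes that are strongly induced by type I interferon in many cells: IFIT1 did not exceed 0.11 RPKM, IFIT3 0.05, IFI44 0.03 and OAS2 0.04, and XAF1 is listed at 0 in all lines. Among the expressed ones, OAS3 stood at 13.67, 13.14, 13.03 and 9.3 RPKM in that order, lowest in METS. The guanylate-binding protein gene GBP3 stood at 6.22, 6.41, 7.59 and 4.23, also lowest in METS. LGALS3BP, a secreted glycoprotein, stood at 74.81, 61.62, 86.25 and 92.73, lowest in SA, and SAMD9, an antiviral factor, at 2.19, 1.85, 1.19 and 4.19, highest in METS.

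**Figure D4:**
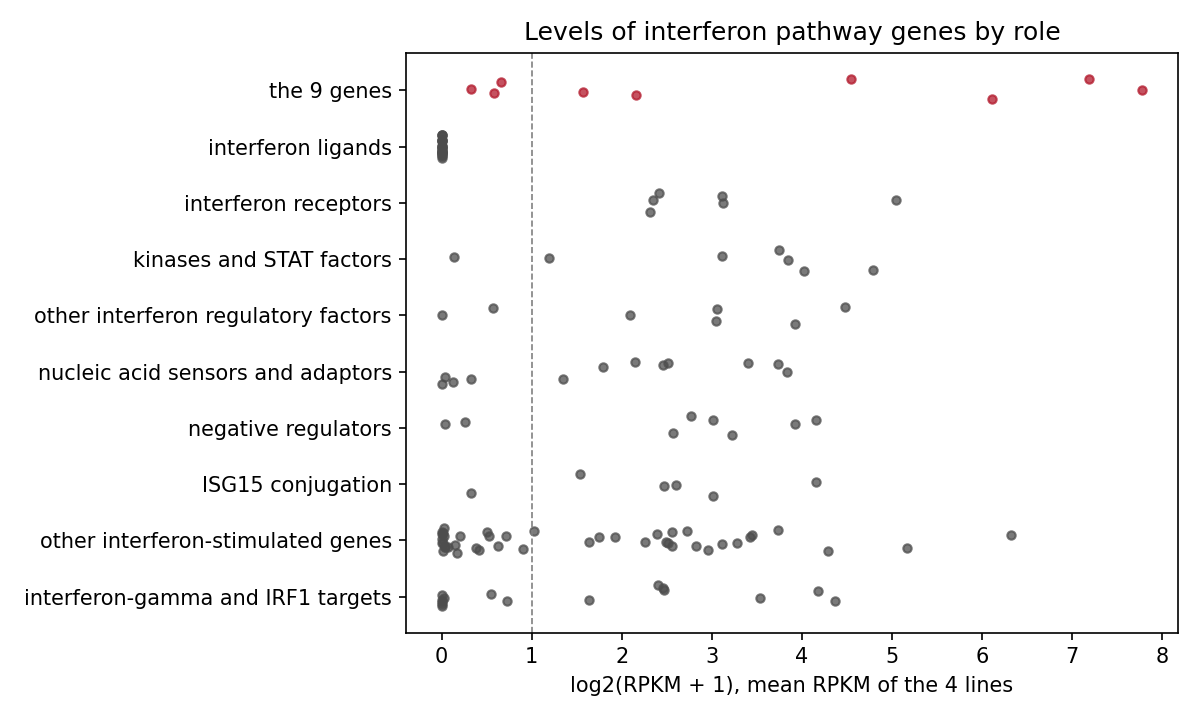
Level of each gene as log2(RPKM + 1) of its mean RPKM over the 4 lines, for the 9 genes (red) and the 9 lists of pathway genes (grey), with vertical scatter for visibility; the dashed line marks 1 RPKM. The 21 ligands lie at or next to 0, the highest at 0.03 RPKM in 1 line, while the 6 receptor subunits all lie right of the line, and the other interferon-stimulated genes divide into 22 that reached 1 RPKM in a line and 21 that did not.

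Of 16 targets of interferon-gamma and IRF1, 15 are listed and 7 reached 1 RPKM. The immunoproteasome subunits PSMB8 and PSMB9, which trim peptides for MHC class I, had 20.01 and 2.77 RPKM in DLD1, with 17.85 and 2.26 in SA, 21.1 and 2.63 in SPH and 9.6 and 0.76 in METS. Both were lowest in METS, while TAP1, the peptide transporter whose gene is their neighbour, was highest there (4.51, 4.31, 3.88 and 5.34 RPKM). The adhesion molecule gene ICAM1 stood at 5.96, 4.37, 4.4 and 3.45 RPKM, highest in DLD1. The chemokine genes CXCL9 and CXCL10 and the enzyme gene IDO1 are listed at 0 in all lines.

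Across the 9 lists, 0 of 64 tested genes passed the class test at an adjusted p of 0.05 (limma-trend), with 2 at an unadjusted p under 0.05 against 8.65% of all genes, and the smallest adjusted p was 0.25, for TMEM173. Their median class difference was 0.01 against 0.04 over all genes tested. By the 2-fold rule 0 of 63 genes were called in SA against DLD1, 0 of 64 in SPH against DLD1, and 1 of 63 (1.59%, against 1.42% of all genes) in METS against DLD1, where PSMB9 was lower by 1.10 on the log2(RPKM + 1) scale. In METS against SPH 4 of 64 genes (6.25%) were called, SAMD9 higher and TMEM173, PSMB8 and PSMB9 lower, against 2.64% of all genes. The counts were 0 of 64 in SPH against SA and in METS against SA. The medians against DLD1 were -0.08 in SA, -0.05 in SPH and -0.11 in METS, against 0.03, 0.03 and -0.03 over all genes.

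**Figure D5:**
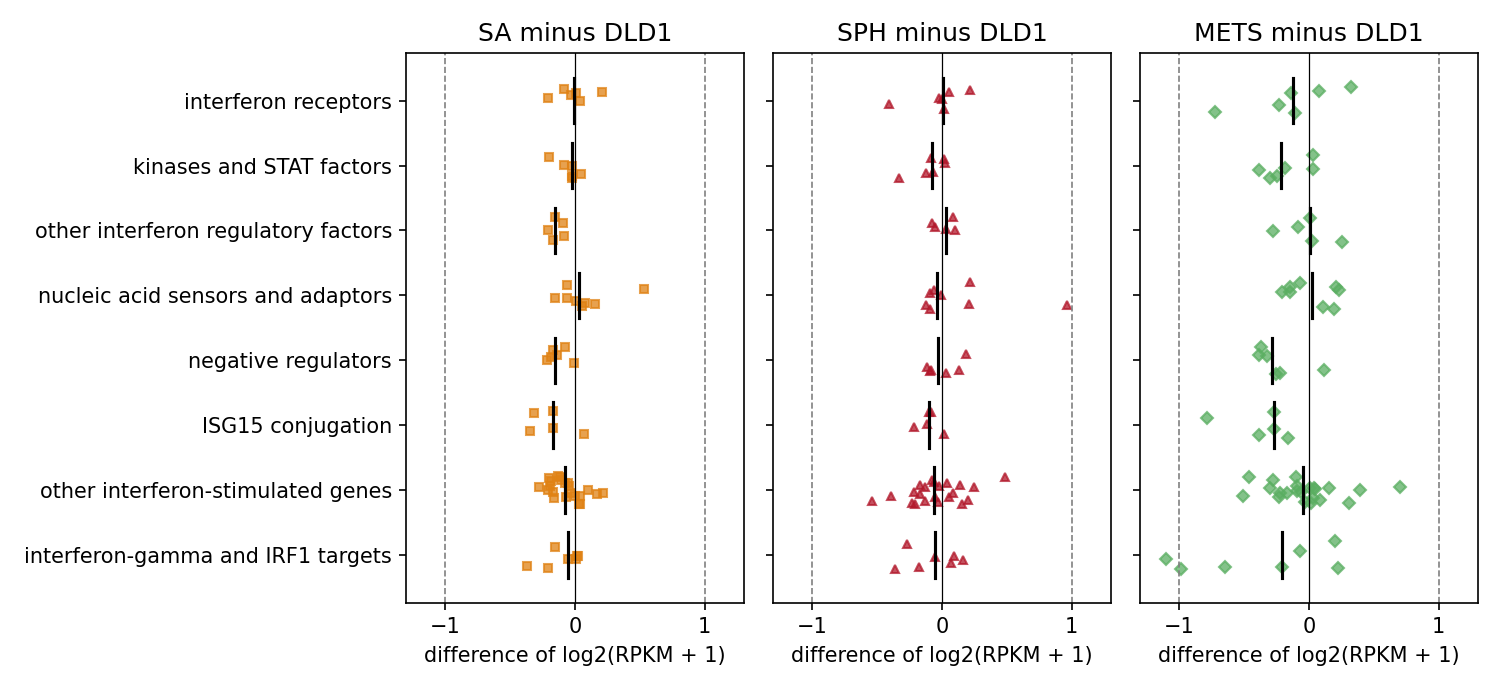
Difference of log2(RPKM + 1) from DLD1 in SA, SPH and METS for the genes of 8 lists that reached 1 RPKM in a line (points, with vertical scatter for visibility) and the median of each list (black bars); dashed lines mark 2-fold. The point beyond a dashed line is PSMB9 in METS, at -1.10.

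Among the 124 pathway genes, 18 had their highest value between 0.1 and 1 RPKM. In 3 of these 18, each mesenchymal line stood at least 2 times above each epithelial line, and in 0 of 18 the reverse held, while 10.2% and 3.14% of all genes in that range did so. The comparison was chosen after the values were seen, and a share of 3 in 18 is near that background. BST2, tetherin, which holds budding viruses at the cell surface, had 0.05 RPKM in DLD1 against 0.24 in SA, 0.3 in SPH and 0.02 in METS. RSAD2, the antiviral enzyme viperin, had 0.05, 0.2, 0.16 and 0.02 RPKM in that order. IRF9, the DNA-binding part of the ISRE complex, had 0.05, 0.16, 0.15 and 0.03. With all annotated exons summed, which gives the upper estimate, the reads behind them were 1 to 18 for BST2, 5 to 47 for RSAD2 and 6 to 30 for IRF9.

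Markers of other cell types were low in all 4 libraries. Among 9 leukocyte markers, PTPRC, CD3E and HLA-DRA are listed at 0 in every line, and the summed level of the list ran from 1.06 RPKM in SA to 1.92 in METS, where CD14 reached 1.36. The 7 fibroblast markers (DCN and THY1 at 0) summed to between 0.22 and 0.49 RPKM, and the 5 endothelial markers that are listed to between 1.08 and 1.37, mostly CLDN5, with CDH5 and KDR at 0. All 8 colorectal epithelial markers were above 1 RPKM in every line, SA and SPH included. Their summed level, mostly of the keratins KRT8 and KRT18, was 1929 RPKM in DLD1 and 2413 in METS but 1437 in SA and 1524 in SPH. It was thus lower in the mesenchymal lines, as the values of IFITM2 and IFITM3 were, and its part in those differences was not tested. The median class difference of the 8 markers was -0.23 (0 of 8 called, limma-trend), with -0.71 for KRT8, -0.64 for KRT18, -0.41 for CLDN4, -0.29 for VIL1, -0.18 for CDH1, -0.06 for EPCAM, 0.04 for CLDN3 and 0.17 for CDX2.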

How the data were processed

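The deposited table holds RPKM values to 2 decimals, 1 column for each line. The unit was read from the values: they are not whole, and their column sums differ between lines. Multiplied by gene length in kb, they summed to between 913210 (SA) and 924096 (DLD1) over 34023 genes of matched length. These properties do not set RPKM apart from every other scaled unit. The submitters' processing notes name hg19 as the build. The use of strand, like the aligner, counting tool and annotation, was not given in the sources used here.

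Library depth was estimated from the step that 1 read makes in values under 3 RPKM of genes of 200 to 500 bases. A gene of 1 kb at 1 RPKM then held 53.75 reads in DLD1 against 48.65 in SA, 52.95 in SPH and 50.15 in METS. The procedure was tested on simulated data. A 0 in the table means no more than that.

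Values entered as log2(RPKM + 1). With 1 library per line, pairs of lines have no test, and genes were called at 2-fold where the higher library reached 1 RPKM. The class test was limma-trend (R 4.3.3 with limma 3.58.1), also tested on simulated data. Counting intervals came from scipy 1.17.1 (Python 3.11.15), and Biopython 1.88 aligned sequences. Alternatives were a pseudocount of 0.1 or 5, other filters, median-of-ratios factors, a 4-fold rule, leaving out each library and limma with no trend.

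The 9 genes and the pathway lists were chosen with earlier results of these data known. Named genes were the 9 genes and, per list, up to 4 of the widest span over the lines among genes of at least 1 RPKM. Other genes were named for their role in the pathway after their values were seen. Interferon ligand and receptor names were matched through RefSeq synonyms. A few genes of the lists are not reported here.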

Additional observations from a re-analysis of the deposited data

How the results depend on the processing

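Under all alternatives run, 0 of the 9 genes were called, in each of the 6 comparisons of lines (46 counts in all with the class test). Between 4 and 9 of the genes were tested, depending on the filter. The smallest adjusted p among them in the class test ran from 0.15 (without DLD1) to 1.0 (without SPH), against 0.35 in the fit as reported (limma-trend). Of the class differences of single genes, 53 kept their sign and their side of the threshold and 5 changed sign, all when a library was left out: the values then ran from -0.25 to 0.16 for ISG15, from -0.32 to 0.13 for IFI6, from -0.43 to 0.042 for OAS1 and from -0.017 to 0.18 for IRF1. Counts over all genes moved more. The 40 genes called by class became 26 with a pseudocount of 0.1, 5 with a minimum of 5 RPKM, 0 with no filter, 288 without DLD1, 26 without METS and 1 without SA or without SPH. The count of genes at 2-fold or more moved from 77 to 211 in SA against DLD1, from 144 to 350 in SPH against DLD1 and from 160 to 368 in METS against DLD1 with a pseudocount of 0.1, and to 12, 24 and 31 with a pseudocount of 5. A minimum of 5 RPKM gave 29, 61 and 88, and a 4-fold rule gave 9, 13 and 14. Under the same 4 alternatives in that order, the count moved from 30 to 117, 1, 16 and 1 in SPH against SA, from 220 to 484, 46, 118 and 26 in METS against SA and from 304 to 675, 55, 155 and 37 in METS against SPH. Of the differences of single genes between lines, 160 were counted as kept under the alternatives, though not all kept their sign. IFITM3 in METS against DLD1, counted as kept, went from -0.0047 to 0.0255 with median-of-ratios factors. The 2 differences not counted as kept moved beyond their counting intervals: IFITM2 in METS with median-of-ratios factors, to 0.52 against SA and 0.46 against SPH. The intervals are of the plain ratio of RPKM, an unlike scale for genes under 1 RPKM. IFI27 in METS against SPH, counted as kept, fell to 0.10 with a pseudocount of 5. That is below the log2 of its interval's lower end, a ratio of 1.14. Leaving a class with 1 library assumes that it varies like the other class. Depth limits IFI27, IFITM1 and MX1, whose counting intervals against DLD1 all include 1 with reads from the shortest coding transcript. Longer transcripts would give more reads and narrower intervals.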

Other observations

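Genes with the ISRE core in a RefSeq promoter window were also described as a whole. Of 646 such genes in the table, 303 (46.9%) reached 1 RPKM in a line, against 54.5% of the 15251 genes with a window. Their median class difference was 0.04, as it was over all genes with a window (0.04). Of 297 tested, 2 (0.673%) passed the class test, against 24 of 8111 (0.296%) of the genes with a window (limma-trend). They were AXL (adjusted p = 0.0497) and EMP3 (adjusted p = 0.043, limma-trend), and without SA or without SPH the calls over all genes dropped from 40 to 1. AXL, a receptor tyrosine kinase, had 0.28, 1.9, 1.5 and 0.15 RPKM in the order DLD1, SA, SPH, METS, and EMP3, a membrane protein, had 0.51, 2.27, 2.56 and 0.19. Both were higher in the mesenchymal lines.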
